A study of Mus musculus with 14 samples.

Results

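The nuclear receptor corepressor complex was examined through the RNA of 5 genes, Ncor1, Tbl1x, Tbl1xr1, Hdac3 and Gps2, chosen by name as the core of the complex. They are 5 of the 54532 genes in the count table, and all 5 were among the 13846 genes with enough counts to be tested. RNA was sequenced from scraped mucosa of the ileum in 14 male mice, 7 WT and 7 IKO, with 1 library per mouse. Both groups carried floxed Ncor1 alleles (flox/flox), and only the IKO mice also carried a Cre recombinase driven by the villin promoter, which is active in the intestinal epithelium. The mice were 7 to 8 weeks old at the start by the methods description, although a higher age is given elsewhere in the same source, and received a high-fat diet (HFD) with 60% of its energy from fat for 15 weeks. Cells of the mucosa outside the epithelium keep Ncor1, and in such bulk samples fewer cells of a type and less RNA per cell cannot be told apart.

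NCoR1 is a large scaffold protein that nuclear receptors bind when they are free of an activating ligand. It holds a core made of HDAC3, a histone deacetylase that gains its activity through binding to the scaffold, the WD40-repeat proteins TBL1X and TBL1XR1, and the small protein GPS2. In the intestine, receptors of fatty acids, sterols and heme are among those that use this complex to keep their target genes at a low level.

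The deleted scaffold itself fell in IKO mice. Of the 4 partners, 0 passed the test with a lower level in edgeR. Of all genes 4.28% did, so 0 of 4 does not set the partners apart. Gps2, the only partner with a fold below the WT level, had an unadjusted p of 0.514 in edgeR. RNA of Tbl1xr1 and Tbl1x rose in IKO mice, to 2.70 and 1.91 times the WT level, and every IKO mouse lay above every WT mouse for both genes. Hdac3 was 1.43 times the WT level and did not pass an adjusted p of 0.05. For Gps2 the ratio was 0.872 and did not pass either. In the quasi-likelihood test of edgeR, adjusted by Benjamini-Hochberg over all genes tested, 8.67% of genes passed an adjusted p of 0.05, with 4.38% rising and 4.28% falling in IKO mice. Of the 5 genes, 3 passed, Ncor1 below and Tbl1x and Tbl1xr1 above WT. Log2(FPKM + 1) values (FPKM are fragment counts scaled by gene length and library, as deposited) were also tested with limma in place of counts. Over the 12165 genes kept by a filter on FPKM, 708 were called higher and 328 lower in IKO mice. In edgeR the split was 607 and 593 over 13846 genes, so the gene set, the scaling and the test all differ. The median log2 fold change of all tested genes was -0.09, and over the settings tried it lay between -0.13 and 0.04.

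**Figure D1:**
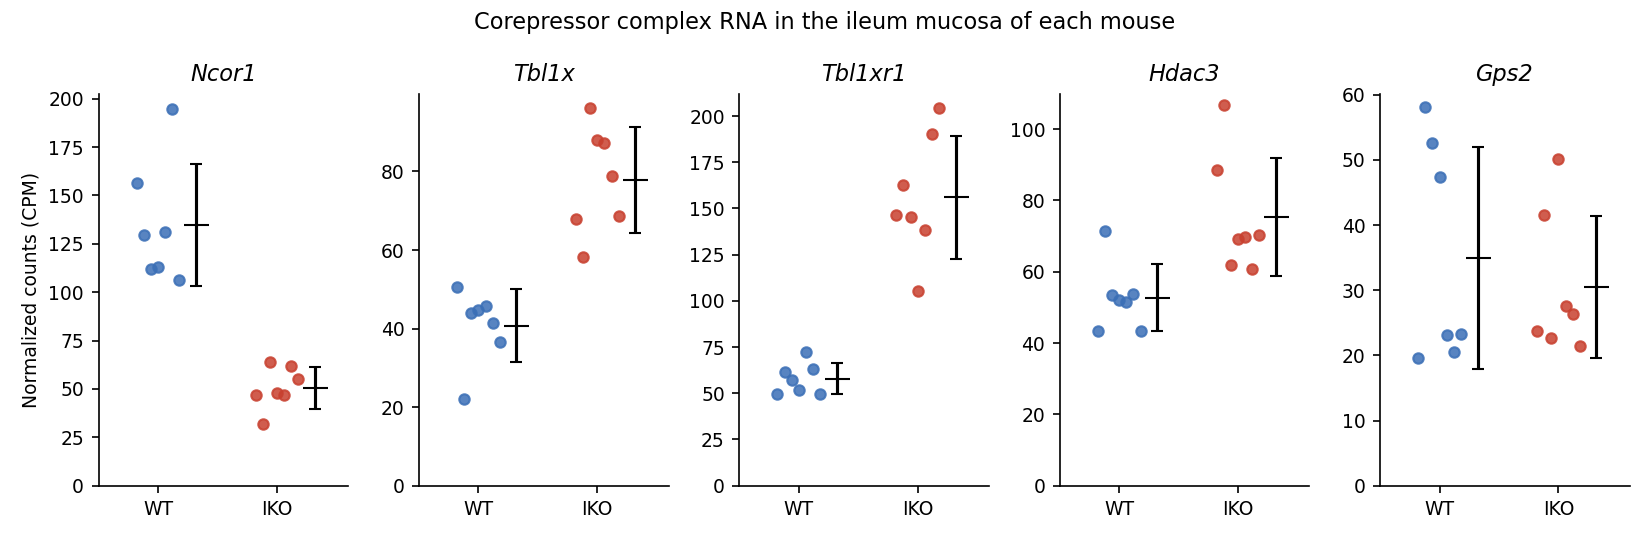
Normalized counts (CPM, counts scaled to library size with TMM factors) of the 5 genes on a linear axis from 0, with 1 point per mouse and the mean ± SD of 7 mice beside each genotype. The IKO points of Ncor1 lie below all WT points, those of Tbl1x and Tbl1xr1 lie above all WT points, and those of Hdac3 and Gps2 overlap with WT.

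Ncor1 (ENSMUSG00000018501, chr11:62316426-62458541, minus strand) encodes the scaffold itself and checks the labels. In WT mice 1 to 7 its level was 156, 130, 112, 113, 131, 195 and 106 CPM. In IKO mice 1 to 7 it was 46.9, 31.7, 64.0, 47.7, 46.6, 61.9 and 55.1 CPM. The highest IKO mouse was below the lowest WT mouse, so the genotype labels and the RNA matched in all 14 libraries. Of all genes tested, 1.26% had every IKO mouse below every WT mouse. The IKO level was 37.5% of WT (95% interval of the fold 0.286 to 0.492), or -1.41 ± 0.18 (SE) in log2 units (edgeR, adjusted p = 0.00051). The counts are taken over the whole gene, and the part removed by Cre is not seen on its own.

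The RNA that remained in IKO mice varied by 21.7% (coefficient of variation, n = 7), against 23.2% in WT mice. Counting error alone for the smallest Ncor1 count, 436 in IKO 4, is 4.79%. Markers of cells that Cre does not reach were present in both groups. The summed level of 12 leukocyte markers ranged from 90.1 to 717 CPM in WT and from 102 to 177 CPM in IKO mice, and 11 of 12 were lower in IKO mice, with 0 passing in edgeR. For 10 smooth muscle markers the range was 162 to 15703 CPM in WT, the highest in WT 4, and 132 to 1304 CPM in IKO mice. Fibroblast markers (8) ranged from 11.5 to 447 CPM in WT and from 19.7 to 60.2 CPM in IKO mice. Endothelial markers (6) ranged from 5.80 to 29.9 CPM and from 5.22 to 13.3 CPM. Markers of enteric neurons and glia (7) ranged from 0.366 to 190 CPM in WT, again highest in WT 4, and from 0.437 to 10.6 CPM in IKO mice. Epithelial markers (11) summed to between 21580.5 and 55601 CPM in WT and between 42154 and 55356 CPM in IKO mice. All 11 epithelial markers had a log2 fold change above 0, with a median of 0.37, and 0 passed. Unlike the epithelial markers, those of the other cell types with tested markers had medians below 0, the direction in which Ncor1 went. The median log2 fold change was -3.00 for smooth muscle (0 of 9 tested markers higher in IKO mice), -2.003 for fibroblasts (1 of 7 higher), -0.98 for leukocytes (1 of 12 higher) and -0.71 for endothelium (1 of 4 higher). The median mice lay closer together. Their summed levels in WT and IKO were 193 and 145 CPM for smooth muscle and 38.9 and 32.1 CPM for fibroblasts. For leukocytes they were 154 and 123 CPM, and for endothelium 12.2 and 8.90 CPM. The highest WT sum was in WT 3 for leukocytes and in WT 4 for smooth muscle, fibroblasts and endothelium. Of the markers of other cells, 0 passed in edgeR, but an unadjusted p under 0.05 was found for 5 of 12 leukocyte, 2 of 9 smooth muscle, 6 of 7 fibroblast and 1 of 4 endothelial markers tested, and for 2 of 11 epithelial ones. Over all genes tested, 30.4% had an unadjusted p under 0.05. DESeq2 called Ptprc of the leukocyte and Pdgfra and Pdgfrb of the fibroblast markers, and Krt8 and Lgals4 of the epithelial ones. None of the markers was at 0 in all libraries. The part of these cells in the remaining Ncor1 RNA was not tested. Without WT 4 the log2 fold change of Ncor1 was -1.45.

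Tbl1xr1 (ENSMUSG00000027630, chr3:22076652-22216594, plus strand) encodes an adaptor that links the scaffold to histones and to the ubiquitin machinery. In WT mice 1 to 7 its level was 49.5, 61.8, 57.2, 51.8, 72.2, 62.9 and 49.7 CPM. In IKO mice 1 to 7 it was 146, 163, 145, 105, 138, 190 and 204 CPM. The lowest IKO mouse, IKO 4, still lay well above WT 5, the highest WT mouse. The rise was 2.70-fold (95% interval 2.12 to 3.43), or 1.43 ± 0.16 (SE) in log2 units (edgeR, adjusted p = 0.00022). Only 119 of the 13846 genes tested, or 0.859%, passed with a rise of at least this size, Tbl1xr1 included.

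Tbl1x (ENSMUSG00000025246, chrX:77511013-77662983, plus strand) encodes the X-linked paralog of TBL1XR1, with the same place in the complex. In WT mice 1 to 7 its level was 50.7, 22.2, 44.0, 44.6, 45.7, 41.4 and 36.7 CPM. In IKO mice 1 to 7 it was 67.9, 58.2, 96.2, 88.1, 87.1, 78.9 and 68.7 CPM. WT 2 was low for its group, and the groups did not overlap with or without it. The rise was 1.91-fold (95% interval 1.47 to 2.48), or 0.93 ± 0.18 (SE) in log2 units (edgeR, adjusted p = 0.0078). Without WT 2 it was 0.83. Of all genes tested, 1.83% had every IKO mouse above every WT mouse, and 2 of these 5 genes did. The exact two-sided permutation p of each was 0.000583, the smallest that 7 against 7 mice can give.

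The deposited FPKM, which are per length, allow the paralogs to be added up. Together, Tbl1x and Tbl1xr1 ranged from 9.83 to 14.4 FPKM over the WT mice and from 24.6 to 33.1 FPKM, with a mean of 28.6 ± 3.26 (SD, n = 7), over the IKO mice, without overlap. Tbl1xr1 made up 53.3% ± 7.96 (SD, n = 7) of this sum in WT mice, and in IKO mice its share was 60.9% ± 8.14 (SD, n = 7). This difference of 7.66 percentage points was not past the threshold (exact two-sided permutation test, p = 0.104). The sum and the share were chosen after the values had been seen.

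Sequence upstream of the annotated start is shown for the genes that rose and for Gps2, which did not, so that they can be compared. It was taken from the RefSeq promoter table (GRCm38.p6), which holds 4 of the 5 genes by symbol, and only bases before the first annotated base of the gene in the count table are printed. The stretches are chr3:22076402-22076651 for Tbl1xr1, chrX:77510977-77511012 for Tbl1x and chr11:69913770-69913887 for Gps2, all on the plus strand and written 5′ to 3′. Capitals mark matches on either strand to the nuclear receptor half-site AGGTCA, the GC box GGGCGG, the E-box CACGTG, the CCAAT box and the tract CCCCTCCCC, which was added after the sequence had been seen.
Tbl1xr1: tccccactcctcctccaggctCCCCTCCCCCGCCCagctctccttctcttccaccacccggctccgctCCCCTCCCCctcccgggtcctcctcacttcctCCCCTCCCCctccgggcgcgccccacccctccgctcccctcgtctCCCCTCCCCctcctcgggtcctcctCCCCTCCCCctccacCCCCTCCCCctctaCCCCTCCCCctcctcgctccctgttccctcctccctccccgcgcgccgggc
Tbl1x: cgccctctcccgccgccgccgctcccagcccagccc
Gps2: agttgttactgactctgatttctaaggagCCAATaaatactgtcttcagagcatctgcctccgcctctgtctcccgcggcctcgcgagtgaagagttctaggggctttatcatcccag

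The Tbl1xr1 stretch held the CCCCTCCCC tract 7 times, the first of them overlapping the reverse strand of a GC box. In full windows of 300 bases, this tract was present in 6.37% of the 32851 promoters of the table and in none of the Tbl1x, Gps2 and Ncor1 windows. A GC box was found in the windows of Tbl1xr1, Tbl1x and the upstream start of Ncor1, and in 35.7% of all promoters. The Gps2 window held 2 CCAAT boxes, a motif of 37.4% of all promoters. The half-site AGGTCA (16.3% of all promoters) and the E-box (7.15%) had 0 matches in the windows of these 4 genes.

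Hdac3 (ENSMUSG00000024454, chromosome 18, minus strand) encodes the deacetylase, the only enzyme among the 5 products. In WT mice 1 to 7 its level was 43.5, 71.3, 53.6, 52.2, 51.4, 53.8 and 43.3 CPM. In IKO mice 1 to 7 it was 88.4, 107, 62.0, 69.3, 69.9, 60.8 and 70.3 CPM. All 7 IKO mice were above the WT median, and 2 of them, IKO 1 and IKO 2, were above every WT mouse. WT 2, at 71.3 CPM, is the mouse that makes the groups overlap. The fold was 1.43 (95% interval 1.13 to 1.81), or 0.52 ± 0.16 (SE) in log2 units (edgeR, adjusted p = 0.054). Over the other settings the adjusted p ran from 0.015 to 0.258, and 7 of 27 settings called Hdac3, DESeq2 among them. A test of its own by exact two-sided permutation gave p = 0.00466, without adjustment for other genes, of which 30.4% had an unadjusted p under 0.05 in edgeR.

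Gps2 (ENSMUSG00000023170, chr11:69913888-69916591, plus strand) encodes the small subunit that joins the scaffold to the TBL1 proteins and also restrains a ubiquitin-conjugating enzyme. In WT mice 1 to 7 its level was 19.5, 58.2, 52.6, 47.4, 23.1, 20.5 and 23.2 CPM. In IKO mice 1 to 7 it was 23.7, 41.5, 22.7, 50.1, 27.6, 26.4 and 21.4 CPM. WT 2, WT 3, WT 4, IKO 2 and IKO 4 lay between 41.5 and 58.2 CPM and the other 9 mice between 19.5 and 27.6 CPM. The spread was thus larger within than between the genotypes, with a coefficient of variation of 48.6% in WT and 35.9% in IKO mice. The fold was 0.872 (95% interval 0.565 to 1.35), or -0.20 ± 0.30 (SE) in log2 units (edgeR, adjusted p = 0.680). The interval holds both a fall and a rise.

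**Figure D2:**
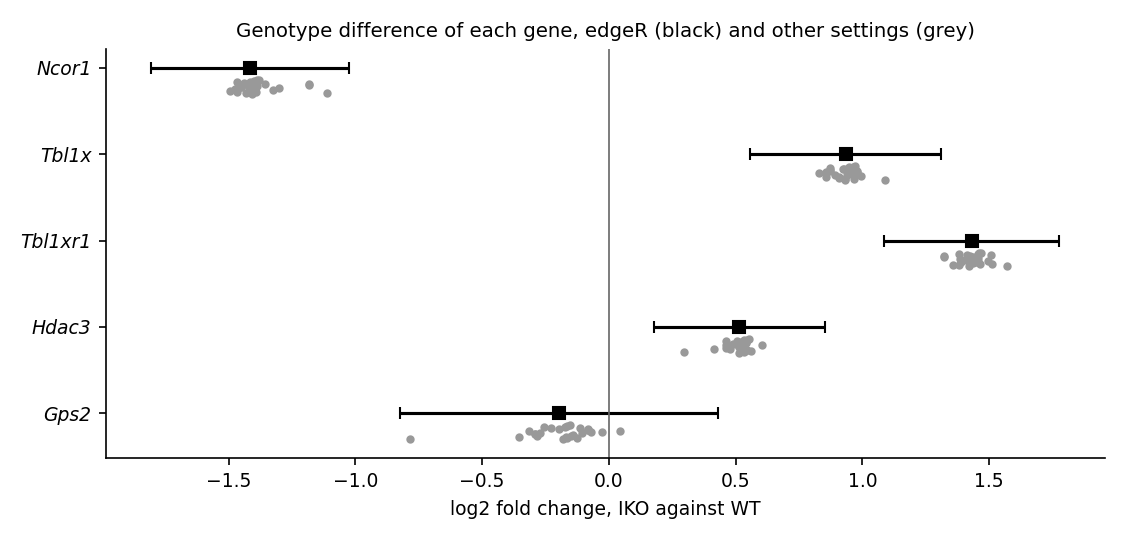
log2 fold change of each gene between IKO and WT mice, with the edgeR value and its 95% interval as black squares and bars and the 27 other settings as grey points. The points of Ncor1 stay between -1.49 and -1.11, those of Tbl1xr1 between 1.32 and 1.57 and those of Tbl1x between 0.83 and 1.09, while those of Gps2 lie on both sides of 0.

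Libraries differed in how levels depended on gene length. As a measure, the slope of a library's log2 deviation from the mean of all libraries on log2 gene length was taken, here called its length trend. It ranged from -0.0034 to 0.117 in WT and from -0.240 to 0.0728 in IKO mice. Gps2, with 1604 bases the shortest of the 5 genes, had its highest IKO levels in IKO 4 and IKO 2, the libraries with the lowest length trends of -0.218 and -0.240. In WT mice the 3 high libraries had trends of -0.0034 (WT 2), 0 when rounded (WT 3) and 0.101 (WT 4). Within IKO mice the Pearson correlation of Gps2 with the length trend was -0.94 (exact permutation p = 0.00754, adjusted over 10 relations 0.038), and Spearman's rho was -0.89 (exact permutation p = 0.0123, adjusted 0.119). Without IKO 2 and IKO 4 the Pearson correlation was -0.69 (n = 5). Within WT mice it was -0.68 (exact permutation p = 0.111, adjusted 0.258) and 0.10 without WT 2 and WT 3, with rho of -0.71 (exact permutation p = 0.0881, adjusted 0.294).

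The longest of the 5, Ncor1 with 12811 bases, went the other way in IKO mice, with a Pearson correlation of 0.83 with the length trend (exact permutation p = 0.00714, adjusted 0.038; rho 0.86, exact permutation p = 0.0238, adjusted 0.119) and 0.85 without IKO 2 and IKO 4. With the length trend as a covariate, chosen after seeing the data, the log2 fold change was -1.11 for Ncor1 (adjusted p = 0.0045 from edgeR), 1.57 for Tbl1xr1, 1.09 for Tbl1x, 0.30 for Hdac3 (adjusted p = 0.258) and -0.78 for Gps2 (adjusted p = 0.083). Of these, Hdac3 and Gps2 moved by more than 1.5 times. Mitochondrially encoded genes took 50.3% of the counts of IKO 4, 23.9% of those of WT 3 and 3.49% to 10.3% of the counts elsewhere. With this share as covariate, the 5 log2 fold changes were -1.41, 1.42, 0.93, 0.51 and -0.18 in the same order.

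**Figure D3:**
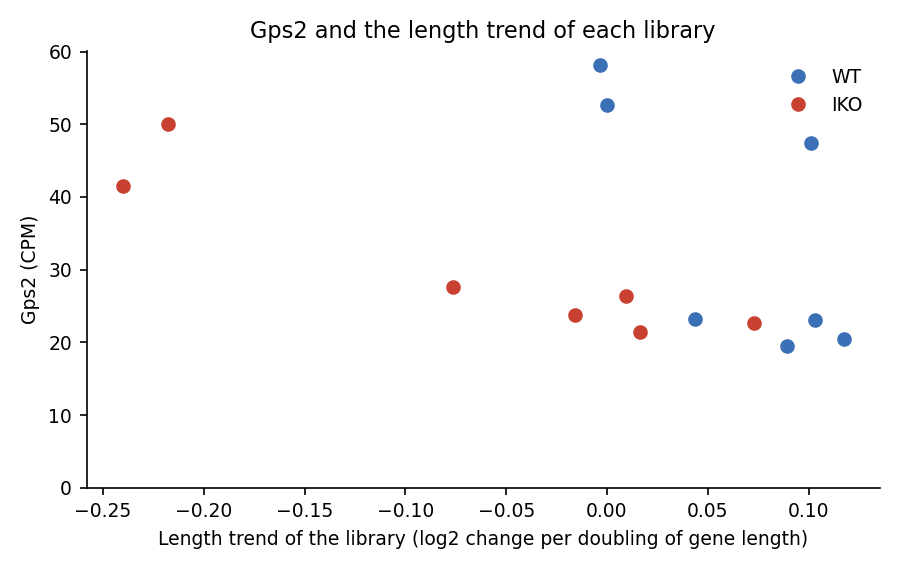
Gps2 level in CPM (vertical axis, from 0) against the length trend of each library (horizontal axis, log2 change per doubling of gene length), with 1 point per mouse. IKO 2 and IKO 4 stand at the far left with 41.5 and 50.1 CPM, and WT 4 combines a high Gps2 level with a trend of 0.101.

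Per length, Ncor1 changed its place in the order of the 5 genes, and the others kept theirs relative to each other. The fall of Ncor1 and the rises of Tbl1xr1 and Tbl1x all enter this change, and their parts were not tested. In WT mice the mean levels in FPKM were 21.2 ± 10.2 for Gps2, 12.8 ± 2.27 for Hdac3, 10.3 ± 2.50 for Ncor1, 6.35 ± 0.957 for Tbl1xr1 and 5.65 ± 1.29 for Tbl1x (SD, n = 7). In IKO mice they were 19.1 ± 6.94 for Gps2, 18.8 ± 4.06 for Hdac3, 17.6 ± 3.74 for Tbl1xr1, 11.1 ± 1.95 for Tbl1x and 3.96 ± 0.848 for Ncor1 (SD, n = 7). The scaffold, in the middle of the WT order, was last in IKO mice and below Tbl1x in 7 of 7 mice. Tbl1xr1 was above Tbl1x in 5 of 7 WT and in 6 of 7 IKO mice. Gps2 was above Hdac3 in 6 of 7 WT mice but in 2 of 7 IKO mice, where a few high values set its mean. Ncor1 was above Tbl1xr1 in 7 of 7 WT mice. Of the 8 neighbour pairs in the 2 orders, 4 had an unadjusted p under 0.05 (exact sign-flip permutation tests, two-sided). After adjustment over the 8 pairs 0 passed in these sign-flip tests. The adjusted p was 0.0625 for these 4 pairs and 0.125 to 0.859 for the rest. The smallest p that 7 mice allow is 0.0156, so a lone pair could not pass this adjustment.

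The RNA of each partner per Ncor1 RNA was higher in IKO mice for all 4 partners. On the FPKM scale, Tbl1xr1 per Ncor1 was 0.455 to 0.792 in WT and 3.17 to 7.38 in IKO mice, a 7.12-fold difference. Tbl1x per Ncor1 was 0.310 to 0.719 in WT and 2.26 to 3.39 in IKO mice, a 5.18-fold difference. For Hdac3 the ranges were 0.880 to 1.75 and 3.09 to 10.7, a 3.79-fold difference. These 3 ratios did not overlap between the genotypes (exact two-sided permutation tests, p = 0.000583 each, adjusted over 4 ratios 0.000777). Gps2 per Ncor1 ranged from 0.843 to 3.74 in WT and from 2.83 to 10.5 in IKO mice, a 2.46-fold difference with 4 of 7 IKO mice above every WT mouse (exact two-sided permutation test, p = 0.0169, adjusted 0.0169). The fall of Ncor1 enters each of these ratios, so a gene with unchanged RNA would also come out higher. Gps2, whose own fold was 0.872, passed in this way. The tests therefore do not show a change of the partners themselves. How many of all genes would pass was not tested.

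**Figure D4:**
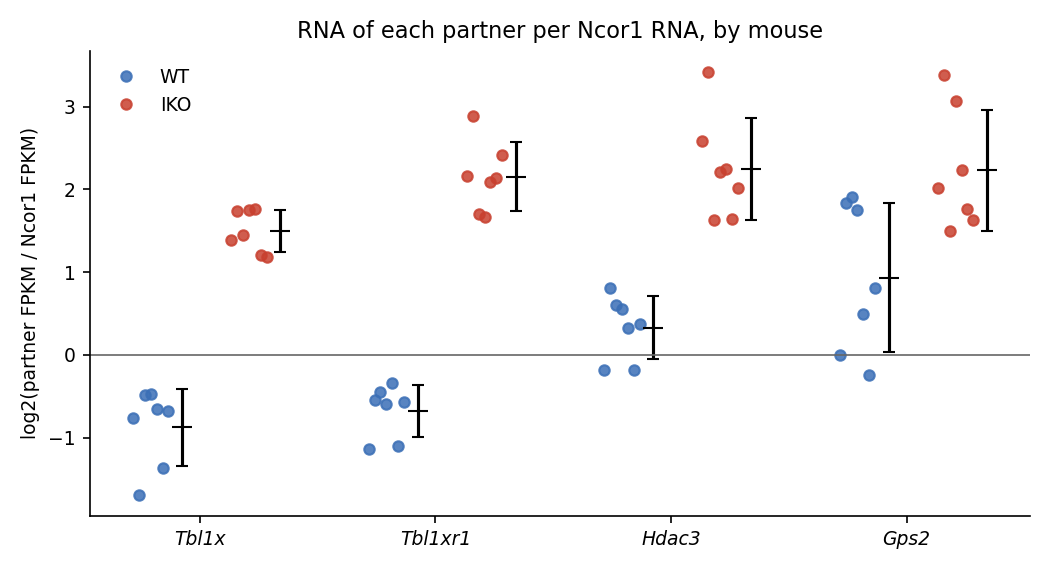
log2 ratio of each partner's FPKM to that of Ncor1, with 1 point per mouse and the mean ± SD of 7 mice per genotype. In WT mice Tbl1x and Tbl1xr1 lie below 0, less RNA than Ncor1 per length, and in IKO mice all points of all 4 partners lie above 0.

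The partners also differed from each other in how far they moved. The 6 ratios between partners were compared after the values had been seen. Hdac3 per Tbl1xr1 was 2.01 in WT and 1.07 in IKO mice (geometric means), a log2 difference of -0.91 (exact two-sided permutation test, p = 0.000583, adjusted over 6 ratios 0.0035). Gps2 per Tbl1xr1 was 3.06 and 1.05, a log2 difference of -1.54 (exact permutation p = 0.0035, adjusted 0.0105). Gps2 per Tbl1x had a log2 difference of -1.08 (exact permutation p = 0.0216, adjusted 0.043). The ratios Tbl1xr1 per Tbl1x, Hdac3 per Tbl1x and Gps2 per Hdac3 did not pass (adjusted p = 0.127, 0.161 and 0.063 from the same exact permutation tests). The change of Tbl1xr1 was thus larger than those of Hdac3 and Gps2, and a difference between the rises of the TBL1 paralogs was not shown.

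Within a genotype, the level of a partner was compared with the Ncor1 level of the same mouse. As the genotypes do not overlap in Ncor1, they were kept apart, and 8 relations were computed over 7 mice each. Of these, 1 passed after adjustment, that of Hdac3 in IKO mice, with a Pearson correlation of -0.91 (exact permutation p = 0.00456, adjusted 0.037). The highest Hdac3 level, 107 CPM, was in IKO 2, which had the lowest Ncor1 level, 31.7 CPM. Spearman's rho for it was -0.79 (exact permutation p = 0.048, adjusted 0.384), and without IKO 2 and IKO 3, the mice farthest from the Ncor1 median, Pearson's r was -0.68 (n = 5). Leaving out IKO 1, 2, 3, 4, 6 or 7 alone ended the call, with r between -0.95 and -0.75 in the fits without a mouse. The adjusted p was 0.656 without IKO 2 and between 0.078 and 0.122 without each of the other 5. In WT mice the correlation of Hdac3 with Ncor1 was 0.05 (exact permutation p = 0.891).

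The other 7 relations did not pass after adjustment. Tbl1x with Ncor1 had r = 0.67 in IKO mice (exact permutation p = 0.0845, adjusted 0.338; rho 0.61), which turned to -0.22 without IKO 2 and IKO 3, and r = 0.14 in WT mice (exact permutation p = 0.777). Tbl1xr1 with Ncor1 had r = 0.30 in WT (exact permutation p = 0.511) and 0.20 in IKO mice (exact permutation p = 0.682). Gps2 with Ncor1 had r = -0.54 in WT and -0.62 in IKO mice (exact permutation p = 0.214 and 0.151, adjusted 0.428 and 0.403). Among mice of the same genotype, a lower Ncor1 level was thus not shown to go with more RNA of Tbl1xr1 or Tbl1x. The length trend moved with Ncor1 and Gps2 in IKO mice, as given above, and its part in these relations was not tested.

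**Figure D5:**
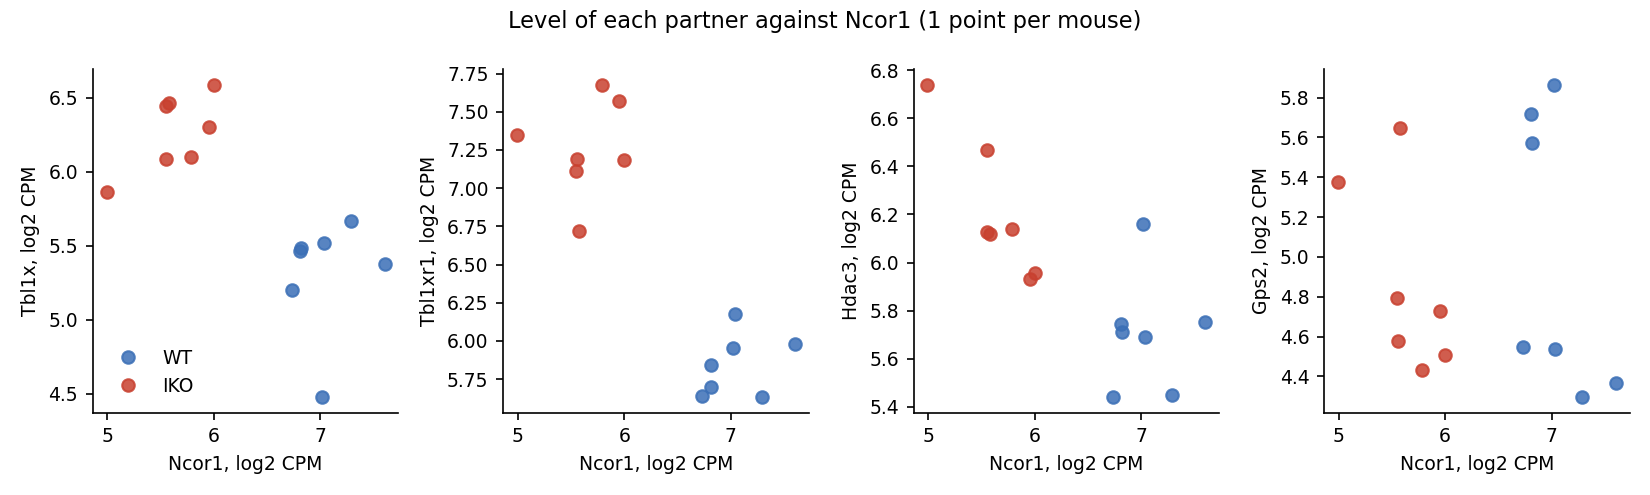
log2 CPM of each partner (vertical axes) against log2 CPM of Ncor1 (horizontal axes), with 1 point per mouse. The genotypes form separate clusters on the Ncor1 axis, and the Hdac3 points of the IKO mice fall from upper left to lower right.

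The genes whose levels went most like each of the 5 were looked up among 8219 genes with a mean log2 CPM of at least 3, by the Pearson correlation of deviations from the genotype means over 14 mice, which is given as a description. For Ncor1 they were Sestd1 (0.90), Ncoa2 (0.89) and Fam120a (0.88). For Tbl1xr1 they were Suco (0.92), Golga1 (0.90) and Cd36 (0.87), and for Tbl1x they were Pard3b (0.88), Gm5518 (0.87) and Rab5b (0.87). Hdac3 went with Aldh16a1 (0.96), Gpx4 (0.95) and Cblc (0.95). Gps2 had the closest companions, Tfeb (0.99), Upf1 (0.99) and Dlgap4 (0.98). For Gps2, the correlations with all genes compared had a 95th percentile of 0.83, and for Ncor1 of 0.72, so high values were common. With the length trend, the correlation was -0.70 for Gps2, 0.71 for Ncor1, -0.54 for Hdac3, 0.40 for Tbl1xr1 and 0.38 for Tbl1x. With the mitochondrial share it was 0.63 for Gps2 and between -0.44 and 0.05 for the others. The part of these library traits in the likenesses was not tested. None of the 5 genes was among the 3 closest of another.

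Other corepressor genes were read from lists written from general knowledge, with 77 of 79 genes tested. Of these, 9 passed in edgeR, 4 higher and 5 lower, or 11.7% against 8.67% of all genes. Further partners of the scaffold, with 10 genes tested, had a median log2 fold change of -0.35. Bcl6, a zinc finger repressor that recruits the scaffold, rose from 14.6 ± 2.27 to 30.0 ± 10.7 CPM (SD, n = 7), or 1.04 in log2 units (edgeR, adjusted p = 0.013).

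The rises of Tbl1x and Tbl1xr1 were set beside the other deacetylase complexes. Of 15 SIN3 genes and 10 NuRD genes, 0 passed in edgeR, with median log2 fold changes of -0.26 and 0.05. Of all genes 8.67% passed, so with lists this short 0 calls do not set these complexes apart. An unadjusted p under 0.05 was found for 4 SIN3 genes and 1 NuRD gene, where 30.4% of all genes had one. DESeq2 called 2 (Brms1l and Sin3a) and 1 (Mbd2). The smallest adjusted p in edgeR was 0.052 for Sin3a, at a log2 fold change of -0.65, and 0.0998 for Mbd2, at 0.39. Of 9 CoREST genes, 2 fell, Phf21a (log2 fold change -0.84, adjusted p = 0.029 from edgeR) and Zmym2 (-0.81, adjusted p = 0.040). The call of Phf21a was lost without WT 3, WT 4 or IKO 1, 4, 5 or 7 (-0.95 to -0.71), and that of Zmym2 without any WT mouse but WT 2 or without IKO 1, 2, 4 or 5 (-0.95 to -0.72). With limma-voom Phf21a had -0.42 (adjusted p = 0.098). Among 3 other class I deacetylases, Hdac2 fell from 29.1 ± 2.37 to 18.4 ± 4.16 CPM (SD, n = 7) without overlap, or -0.66 in log2 units (edgeR, adjusted p = 0.017), where Hdac3 had 0.52. Trim24, a nuclear receptor cofactor, was the only gene of 9 other corepressors to pass, at -0.95 in log2 units (edgeR, adjusted p = 0.016).

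Of 7 ubiquitin enzymes tied to the complex, 0 passed in edgeR, 3 had an unadjusted p under 0.05, and DESeq2 called 3, Siah2, Ube2d3 and Ube2n. Of all genes, 8.67% passed in edgeR and 30.4% had an unadjusted p under 0.05. The smallest edgeR adjusted p was 0.074 for Siah2, a ligase for the scaffold, at a log2 fold change of 0.56. Among 14 tested nuclear receptors that bind NCoR1, 3 rose and 0 fell, with a median log2 fold change of -0.04. They were Nr1d1, the heme receptor REV-ERBα (1.66), Ppara (1.55) and Ppard (0.74), with adjusted p = 0.0034, 0.029 and 0.019 from edgeR. The call of Ppara was lost without WT 7, IKO 3 or IKO 4 (1.30 to 1.68).

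With the length trend as covariate, several of these list genes moved by more than 1.5 times toward 0. The log2 fold change was then -0.43 for Zmym2 and 0.49 for Ppard, and both calls were lost (edgeR, adjusted p = 0.173 and 0.096). It was -0.30 for Sin3a, 0.16 for Mbd2 and 0.16 for Siah2, none of which had passed without it. The calls of Hdac2 (-0.62, edgeR adjusted p = 0.056) and Trim24 (-0.78, edgeR adjusted p = 0.060) were also lost. With limma-voom Siah2 had 0.33.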

How the data were processed

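Ileal mucosa RNA of 14 mice was measured, 7 per genotype. The authors made NEBNext libraries, aligned paired reads to mm10 with HISAT2 2.0.5 (versions and build from the submitters' processing notes) and counted them per gene with featureCounts 1.5.0-p3. Whether strand was used is not given in the sources used here. The counts were deposited unnormalized and sum to between 14749669 and 21557468 per library. The deposited FPKM equal counts per length divided by the DESeq2 size factor times 1 constant, as checked on the values. Columns named KO were read as IKO.

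Genes passing filterByExpr were compared with edgeR 4.0.16 (TMM, glmQLFTest, genotype only) in R 4.3.3. The standard error is the log2 fold change over the square root of F. Log2 levels add a prior count of 2. Correlations, ratios and orders were tested by exact permutation (two-sided). Alternatives were DESeq2 1.42.0, RLE scaling, other filters, limma 3.58.1 on log2(FPKM + 1) and log2(FPKM + 0.1) with a minimum of 0.5 FPKM in 7 samples and with none, limma-voom with sample weights, library sizes without mitochondrial genes, the sample number as a block and leaving out mice. Covariates for the length trend and the mitochondrial share were added after the data had been seen. The edgeR fit was tested on simulated counts. The genes and lists were chosen with earlier results of these data known. Named are the 5 genes, the 3 genes most like each, and from each list up to 3 called genes, or that with the smallest p. Some results of these lists are not reported here.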

Additional observations from a re-analysis of the deposited data

Results flagged for a closer look

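Over 18 groups of 7 mice, for the levels of the 5 genes and the ratios of 4 of them to Ncor1, 1 mouse lay apart from its group by more than the 95% critical value of Dixon's test (0.568), and chance gives about 1 in 20 groups. This was WT 2, with the lowest Tbl1x of the WT mice (22.2 CPM, from 344 counts), at a gap of 0.608 of the range of log2 levels. The same mouse had the highest Gps2 (58.2 CPM) and the highest Hdac3 (71.3 CPM) of its group.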

How the results depend on the processing

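The calls of Ncor1, Tbl1x and Tbl1xr1 and the absence of a call for Gps2 held in all 27 other settings, and 3 or 4 of the 5 genes were called, the fourth being Hdac3. The adjusted p ran up to 0.010 for Ncor1, 0.021 for Tbl1x and 0.010 for Tbl1xr1. Gps2 changed sign with limma-voom (log2 fold change of Gps2 0.044) and lay between -0.35 and -0.03 in the fits without a mouse. The ratios of the 4 partners to Ncor1 passed in all 14 fits without a mouse, and CPM in place of FPKM cannot change them. Without IKO 4, 3 of the 5 genes changed place in the IKO order. Of the relations with Ncor1, 0 to 1 passed in the fits without a mouse, and the correlation of Hdac3 with Ncor1 in WT mice ranged from -0.21 to 0.27 there. Of the genes in the other lists, 9 were called, against 17 with DESeq2, 5 with no filter on low counts, 5 without WT 3 and IKO 4, and 2 with the sample number as a replicate block. Without a mouse each, 5 (without IKO 4) to 13 were called. Over all genes, 1200 were called, against 2444 with DESeq2, 508 with no filter, 648 without WT 3 and IKO 4, 614 with limma on unfiltered log2(FPKM + 1), 1889 with limma-voom, 362 with the replicate block and 515 (without IKO 5) to 1371 without a mouse each, with 746 without WT 4, 600 without WT 7, 526 without IKO 1, 728 without IKO 2 and 789 without IKO 7. With the block, the calls of Bcl6 and Nr1d1 were kept among the named genes of the lists, and the others were lost. The causes were not tested. Correlations of the deviations of mice with the same number ran from -0.31 to 0.23 and were not tested. The labels give no pairing by number, and these correlations cannot exclude one. Under the block, the same 3 of the 5 genes were called. Counting error alone was at most 5.39% for the smallest count of any of the 5 genes, which leaves out noise of library preparation and PCR.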

Other observations

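Of 3 genes that overlap Ncor1 on the opposite strand, Ttc19 and Gm12276 also had lower levels in IKO mice. Ttc19, which shares 1 exonic base with Ncor1 in the GENCODE annotation, was lower by a log2 value of -0.68 ± 0.17 (SE; edgeR, adjusted p = 0.025), with 26.4 and 16.5 CPM in WT and IKO mice. Gm12276, a pseudogene within Ncor1 that shares 0 exonic bases with it, had -1.23 ± 0.36 (SE; edgeR, adjusted p = 0.047), with 292 and 100 counts over 7 mice each. Pigl, which shares 82 exonic bases (0.640% of those of Ncor1), had -0.05 (adjusted p = 0.896 from edgeR). They were named after their values had been seen. Without strand, reads of opposite genes cannot be told apart.

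Of 12 relations between partners within a genotype, 0 passed after adjustment. The smallest p was that of Tbl1x with Hdac3 in IKO mice, with a Pearson correlation of -0.83 (exact permutation p = 0.0165, adjusted 0.198; rho -0.79), and -0.53 without IKO 2 and IKO 3. In WT mice it was -0.76 (exact permutation p = 0.0796, adjusted 0.318; rho -0.46).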
